A study of Mus musculus with 18 samples.

Results

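Homeostatic microglia genes were followed here through mouse retina after intravitreal injection of a glucocorticoid. The 7 genes are Tmem119, P2ry12, Cx3cr1, Csf1r, Aif1, Fcgr3 and Ly86. They were chosen by symbol, and every probe set that the platform annotation assigns to 1 of these genes alone was taken, which gave 10 of the 34945 probe sets that name a single gene and 7 of 18193 genes. Csf1r has 3 probe sets, Cx3cr1 has 2, and the other genes have 1 each. For the values given per gene, the probe set with the widest interquartile range over all arrays was kept, without regard to group.

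The animals were male C57BL6/J mice 2 months old, kept under a regular light and dark cycle, and no genetic change is given for any group. Eyes received the balanced salt vehicle (BSS), dexamethasone (DEX) or triamcinolone (TAA in the labels) into the vitreous, and retinas were collected on day 7 or day 30. The design has 6 groups (3 treatments by 2 days) of 3 biological replicates, and with 1 Affymetrix array for each replicate there are 18 arrays. The sources used here state no dose, do not say how many eyes or animals went into an array, and describe no uninjected retina, so all groups share the injection itself.

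Microglia are the resident macrophages of the retina, where they lie mainly in the plexiform layers, survey synapses and clear debris. Their survival depends on signalling through the receptor Csf1r, and in their resting state they carry a set of genes that includes Tmem119, P2ry12 and Cx3cr1. On activation by injury these resting genes are commonly reduced while lysosomal and lipid-handling genes increase. Glucocorticoids act through the glucocorticoid receptor, which microglia themselves express, and DEX and TAA are both fluorinated synthetic agonists of it that differ in their solubility and in how long they persist in the vitreous.

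Values are log2 differences from each probe set's own median over the 18 arrays, so 0 is the middle of the arrays for that probe set, and the log base is that of RMA's usual scale. They carry no expression level and no distance from background, and genes cannot be ranked against each other by level. Whether the RNA held the transcripts that define retina was therefore not tested. In bulk retina, fewer microglia and less RNA per microglial cell cannot be told apart.

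The arrays differed in several ways, some of them between arrays of the same group. The standard deviation of all probe sets within an array ran from 0.146 to 0.349, with the highest values in TAA day 30 replicate 2 and TAA day 7 replicate 2. The mean of 12 reactive glia genes such as Gfap, an intermediate filament of stressed Müller cells and astrocytes, and Serpina3n, a secreted protease inhibitor, was 2.17 in TAA day 7 replicate 2 and lay between -0.92 and 0.73 in the other 17 arrays. The mean of 8 lens genes was 4.16 in TAA day 30 replicate 3 and between -1.87 and 2.09 elsewhere. Of 9 classical targets of the glucocorticoid receptor, 4 had higher means in DEX than in BSS at day 7 (median -0.07) and 6 in TAA (median 0.83). Fkbp5 and Zbtb16, standard targets of the glucocorticoid receptor, were 0.88 ± 0.29 and 0.83 ± 0.15 higher in TAA than in BSS at day 7 and 0.14 ± 0.29 and 0.15 ± 0.15 higher in DEX than in BSS (log2, ± SE, n = 3 each), and neither passed the test in either comparison (limma, Benjamini-Hochberg adjusted p from 0.32 to 1).

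The promoters of the genes give the sequence around the start from which each is transcribed. RefSeq's promoter table (GRCm38.p6) held 5 of the 7 genes, and Tmem119 and Csf1r are not analysed here in this respect. GGAAGT, a core of the sites bound by ETS factors, GAGGAA, a core of the sites of the ETS factor PU.1 (product of Spi1), and AGAACA, an arm of the element bound by the glucocorticoid receptor, were searched on both strands of the 250 bases before each start. GGAAGT and GAGGAA share letters, so a single stretch can hold both. The stretches of 100 bases just before the start are shown for the 3 genes with a motif there and for Cx3cr1, the gene of largest difference at day 7, read 5′ to 3′ along the gene, with any motif in capitals.
P2ry12, chr3:59262986-59263085, minus strand: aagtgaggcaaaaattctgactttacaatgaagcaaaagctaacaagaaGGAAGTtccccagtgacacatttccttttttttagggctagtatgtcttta
Cx3cr1, chr9:120068297-120068396, minus strand: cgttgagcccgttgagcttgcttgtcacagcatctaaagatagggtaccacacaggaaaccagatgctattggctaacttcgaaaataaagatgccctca
Aif1, chr17:35176053-35176152, minus strand: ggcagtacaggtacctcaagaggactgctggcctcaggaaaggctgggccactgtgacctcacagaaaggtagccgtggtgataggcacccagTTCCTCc
Fcgr3, chr1:171059404-171059503, minus strand: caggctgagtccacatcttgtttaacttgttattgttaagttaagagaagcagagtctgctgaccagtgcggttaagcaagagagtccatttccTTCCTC
P2ry12 held GGAAGT, 51 bases before its start, and 22.2% of the 27025 genes in the table held that motif. Aif1 held GAGGAA on the other strand 7 bases before its start, and Fcgr3, listed with 2 starts of which 1 is shown, 6 and 15 bases before them, against 25.9% of all genes. AGAACA was found only in the window of Ly86, 237 bases before the start, against 18.2% of all genes, and the window of Cx3cr1 held none of the 3 motifs. A match describes the letters and is no evidence of binding.

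The members spread widely within groups of the same treatment and day. The residual standard deviation was 0.58 for Ly86, which lies at percentile 99.5 of all probe sets, 0.43 for Csf1r, 0.42 for Fcgr3, 0.41 for Cx3cr1, 0.29 for Aif1 and 0.28 for P2ry12. Tmem119, at 0.15 and percentile 36.7, was the exception, and the median over all probe sets was 0.167. Each group mean rests on n = 3 arrays, and this number sets how precise a difference can be.

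DEX day 7 had the highest group mean for all 7 genes, as the plot of array values in colour shows. TAA day 7 had the lowest mean for P2ry12, Cx3cr1 and Csf1r, TAA day 30 for Aif1, Fcgr3 and Ly86, and DEX day 30 for Tmem119. Most neighbours in these orders did not differ beyond their spread. Of the 5 steps between neighbouring means, 2 exceeded the residual standard deviation for Tmem119, 1 each for P2ry12, Cx3cr1 and Csf1r, and 0 for Aif1, Fcgr3 and Ly86.

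**Figure D1:**
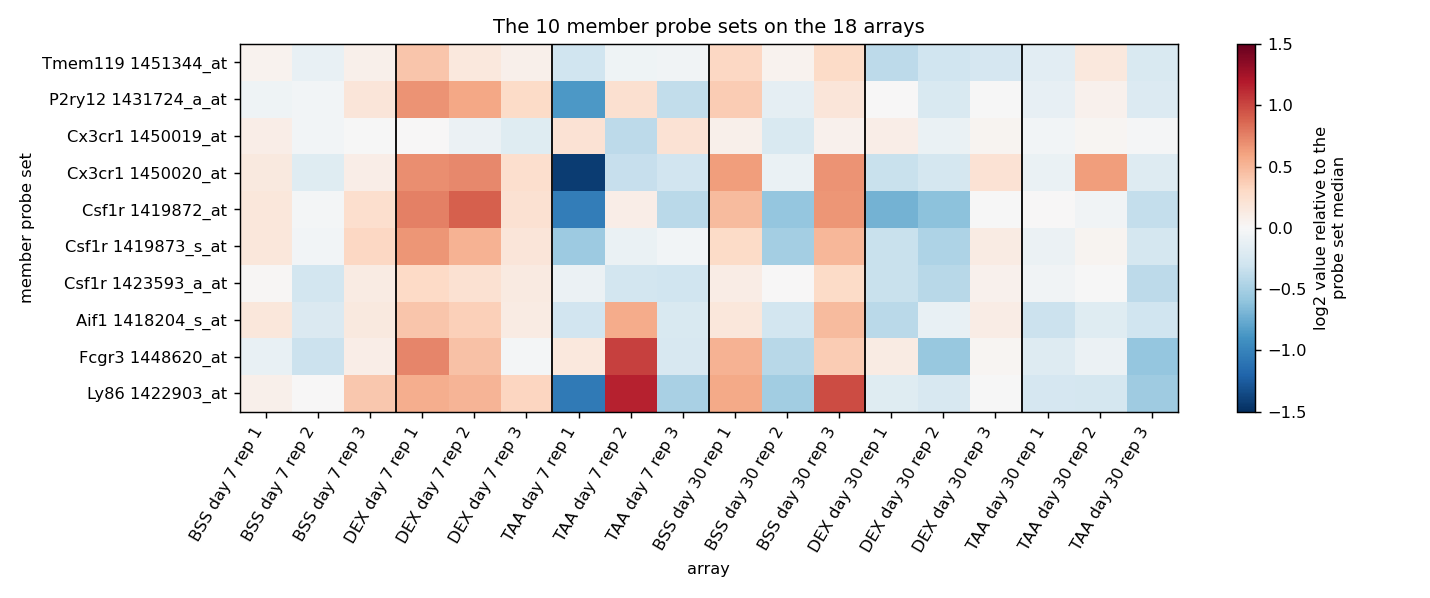
Colour shows the log2 value relative to the probe set's median over 18 arrays for each of the 10 member probe sets (rows) in each array (columns, ordered by group and replicate). The 3 DEX day 7 columns are mostly above 0, TAA day 7 replicates 1 and 3 mostly below 0 and TAA day 7 replicate 2 mixed, and BSS day 30 replicate 2 is below 0 for most rows while the other 2 arrays of its group are above.

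P2ry12 is the purinergic receptor that guides microglial processes to released nucleotides. At day 7 its values in replicates 1, 2 and 3 were -0.06, -0.04 and 0.18 in BSS, 0.68, 0.57 and 0.29 in DEX, and -0.87, 0.24 and -0.37 in TAA. All 3 DEX arrays lay above all BSS and all TAA arrays, the nearest TAA array by a narrow margin, and the TAA arrays spanned the BSS range. The difference from DEX to TAA was 0.85 ± 0.20 (a factor of 1.80), and that from DEX to BSS was 0.48 ± 0.20. At day 30 the values were 0.38, -0.13 and 0.18 in BSS, 0.01, -0.23 and -0.01 in DEX, and -0.12, 0.06 and -0.21 in TAA. All 3 groups overlapped at day 30.

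Tmem119 is a membrane protein used to tell microglia from other macrophages. At day 7 its values were 0.05, -0.11 and 0.08 in BSS, 0.42, 0.15 and 0.08 in DEX, and -0.30, -0.06 and -0.05 in TAA. The lowest DEX array (0.0788) and the highest BSS array (0.0772) were nearly level, and the TAA arrays lay below all DEX arrays and overlapped BSS. At day 30 the values were 0.31, 0.05 and 0.29 in BSS, -0.39, -0.30 and -0.25 in DEX, and -0.15, 0.16 and -0.23 in TAA. The DEX arrays lay below every BSS array and, by a narrow margin, below every TAA array. The difference from BSS was 0.21 ± 0.12 at day 7 and -0.53 ± 0.12 at day 30.

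Cx3cr1 is the receptor for fractalkine, a chemokine made by neurons. At day 7 the kept probe set read 0.15, -0.18 and 0.09 in BSS, 0.70, 0.72 and 0.25 in DEX, and -1.43, -0.35 and -0.29 in TAA. The 3 groups did not overlap, with DEX above BSS and BSS above TAA, and TAA replicate 1 was far below its 2 companions. At day 30 it read 0.63, -0.09 and 0.67 in BSS, -0.33, -0.27 and 0.21 in DEX, and -0.10, 0.63 and -0.20 in TAA, with overlap between all groups. DEX exceeded TAA at day 7 by 1.24 ± 0.28 (95% interval 0.65 to 1.84, a factor of 2.37).

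The second Cx3cr1 probe set did not follow the first. It read 0.10, -0.05 and -0.0043 in BSS, 0.0043, -0.09 and -0.18 in DEX and 0.22, -0.39 and 0.21 in TAA at day 7, and its day 30 values lay between -0.23 and 0.10. Its difference from DEX to TAA at day 7 was -0.10 ± 0.14. Over the 18 arrays the 2 probe sets had r = -0.13 (rho = -0.07, permutation p = 0.608, adjusted 0.628), and r = -0.42 without the 2 arrays farthest from the median. Every statement on Cx3cr1 outside this paragraph is from the kept probe set, and which of the 2 probe sets reads the transcript was not tested.

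Csf1r is the tyrosine kinase receptor for Csf1 and Il34. At day 7 the kept probe set read 0.17, -0.03 and 0.25 in BSS, 0.76, 0.89 and 0.23 in DEX, and -1.04, 0.09 and -0.41 in TAA. DEX replicate 3 lay within the BSS range, and all DEX arrays lay above all TAA arrays. At day 30 it read 0.47, -0.58 and 0.66 in BSS, -0.70, -0.61 and -0.01 in DEX, and 0.01, -0.05 and -0.35 in TAA. BSS replicate 2 lay below DEX replicate 3 and below every TAA array, so the groups overlapped.

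The 3 probe sets of Csf1r moved together, with r of 0.95, 0.74 and 0.77 between pairs (adjusted permutation p from 8e-05 to 0.00128). Their differences from DEX to TAA at day 7 were 1.08 ± 0.30, 0.68 ± 0.22 and 0.44 ± 0.14, and all DEX arrays lay above all TAA arrays in each of the 3. The directions were shared and the sizes were not.

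Aif1 encodes Iba1, the actin-binding protein by which microglia are usually stained. At day 7 its values were 0.17, -0.22 and 0.14 in BSS, 0.42, 0.36 and 0.12 in DEX, and -0.29, 0.55 and -0.23 in TAA. The highest of these 9 values was that of TAA replicate 2, and no pair of groups was separate. At day 30 its values were 0.16, -0.28 and 0.47 in BSS, -0.40, -0.11 and 0.11 in DEX, and -0.32, -0.18 and -0.29 in TAA.

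Fcgr3 is a low-affinity receptor for immunoglobulin G that signals through Fcer1g. At day 7 its values were -0.11, -0.32 and 0.10 in BSS, 0.74, 0.44 and -0.03 in DEX, and 0.16, 1.02 and -0.24 in TAA. Fcgr3 was the only one of the 7 genes with a mean above BSS in the TAA group at day 7 (0.43 ± 0.29), a mean that holds the value of 1.02. At day 30 its values were 0.52, -0.42 and 0.38 in BSS, 0.13, -0.56 and 0.03 in DEX, and -0.19, -0.09 and -0.57 in TAA.

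Ly86 encodes MD-1, the secreted partner of the Toll-like receptor relative Cd180. At day 7 its values were 0.08, 0.01 and 0.41 in BSS, 0.54, 0.51 and 0.33 in DEX, and -1.06, 1.15 and -0.48 in TAA. The TAA arrays held both the highest and the lowest of the 9 values. At day 30 its values were 0.56, -0.52 and 0.97 in BSS, -0.18, -0.24 and -0.01 in DEX, and -0.25, -0.27 and -0.53 in TAA. At day 30 the DEX arrays lay above all TAA arrays and within the BSS range.

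**Figure D2:**
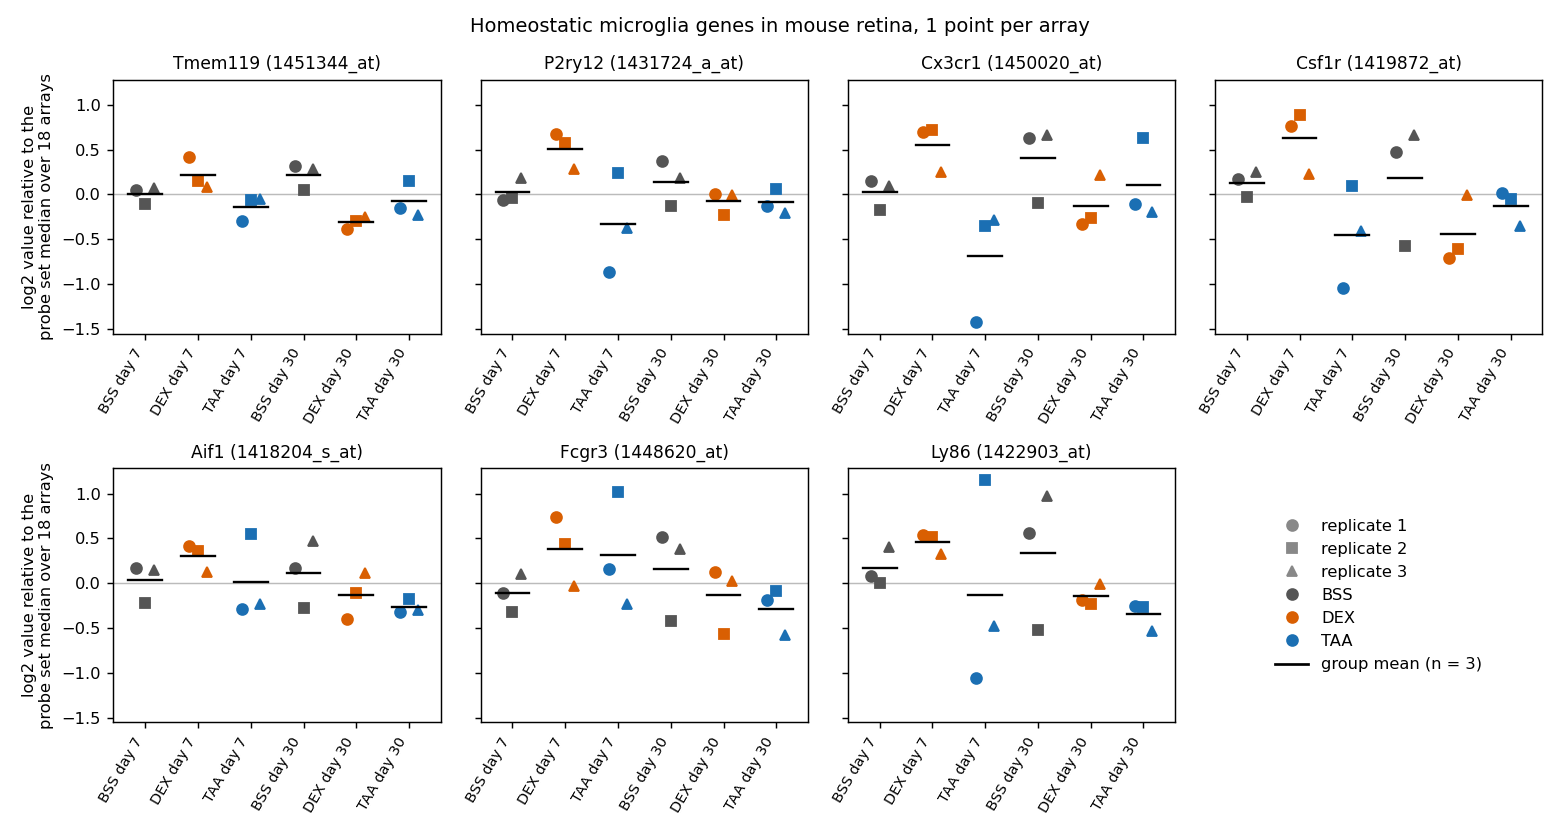
Each point is 1 array's log2 value relative to the probe set's median, by group, for the kept probe set of each of the 7 genes. Bars mark the mean of 3 arrays. DEX day 7 has the highest mean in every panel, and the 3 TAA day 7 arrays of Ly86 span the widest range, from -1.06 to 1.15.

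The comparison of DEX with BSS at day 7 asks how the retina stood a week after dexamethasone. All 7 genes had higher means in DEX, by 0.21 for Tmem119 to 0.53 ± 0.28 for Cx3cr1, with a median of 0.48, while 48.4% of all genes were higher and their median was -0.00. No member passed the test (0 of 10 probe sets, limma, all adjusted p = 1), and over all 45037 probe sets percent called was 0. For 3 of 7 genes (Tmem119, P2ry12 and Cx3cr1) and for 1 Csf1r probe set every DEX array lay above every BSS array, against 6.86% of all probe sets, and 0 lay wholly below, against 6.94%. DEX replicate 3 lay closest to BSS, and without it all 7 genes lay wholly above, against 13.6% of all probe sets. Without BSS replicate 3, 6 of 7 did, against 10.98%. The median was 0.32 without DEX replicate 1. The mean of 10 pigment epithelium markers split the same DEX arrays, at -0.32, -0.50 and 0.21 in replicates 1, 2 and 3. In BSS it was 0.42, 0.11 and 0.21. Of these markers 1 was higher in DEX than in BSS and 9 lower (median -0.54), and their part in the members' values was not tested.

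The comparison of TAA with BSS at day 7 uses the same BSS arrays. Of the 7 genes 6 had lower means in TAA and Fcgr3 a higher one, with differences from -0.71 ± 0.28 for Cx3cr1 and -0.58 ± 0.30 for Csf1r to -0.02 ± 0.21 for Aif1 and 0.43 for Fcgr3. The median was -0.29, against -0.00 for all genes, and 0 of 10 probe sets passed (adjusted p = 1), with percent called 0.00222 over all probe sets. Cx3cr1 lay wholly below BSS, against 5.65% of all probe sets, and no gene lay wholly above, against 4.26%. The median rested on single arrays: it was -0.65 without TAA replicate 2, with 5 of 7 genes wholly below BSS (10.8% of all probe sets), and -0.06 without TAA replicate 1. Without BSS replicate 2, 3 of 7 genes lay wholly below (9.08% of all probe sets). TAA replicate 2 was the array with the reactive glia mean of 2.17, and the part of that signal in the result was not tested.

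**Figure D3:**
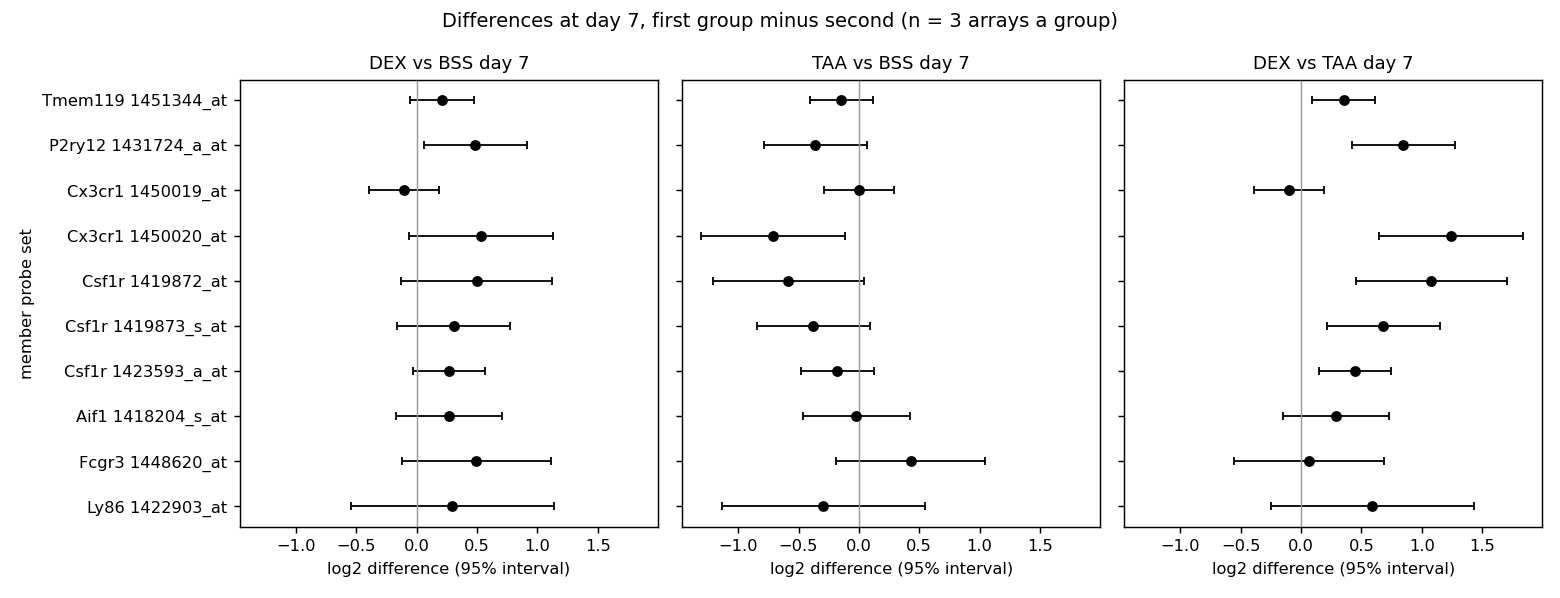
Points are the log2 differences between group means at day 7 for each of the 10 member probe sets, with 95% intervals from the fit, for DEX against BSS, TAA against BSS and DEX against TAA. The intervals of 6 probe sets lie above 0 for DEX against TAA, with Cx3cr1 farthest at 1.24, and most intervals against BSS include 0.

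DEX and TAA were compared directly at day 7, at doses that the labels do not state, so equal exposure cannot be assumed. All 7 genes had higher means in DEX, with a median of 0.59 against -0.00 over all genes. The differences were 1.24 for Cx3cr1, 1.08 ± 0.30 for Csf1r, 0.85 ± 0.20 for P2ry12 (95% interval 0.42 to 1.27), 0.59 ± 0.40 for Ly86, 0.35 ± 0.12 for Tmem119 (95% interval 0.09 to 0.62), 0.29 ± 0.21 for Aif1 and 0.07 ± 0.29 for Fcgr3 (95% interval -0.55 to 0.69). For 4 of 7 genes (6 of 10 probe sets) every DEX array lay above every TAA array, against 6.71% of all probe sets, and 0 lay wholly below, against 5.45%.

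No member passed the test between the 2 drugs after adjustment over all probe sets. The smallest adjusted p among members was 0.525, for Cx3cr1 (limma), 0 of 45037 probe sets passed (percent called 0), and 2746 probe sets had an unadjusted p under 0.05, among them 6 of the 10 member probe sets. In the fit that weights arrays by their noise, 860 probe sets passed, 4 of them members (P2ry12, Cx3cr1 and 2 of Csf1r). That fit gave TAA replicates 1, 2 and 3 weights of 0.59, 0.28 and 4.23, so its TAA mean rests mainly on replicate 3. The difference shrank without TAA replicate 1, to 0.87 for Cx3cr1, 0.79 for Csf1r and 0.58 for P2ry12, with a median over the 7 genes of 0.27. Without that array 4 genes again lay wholly above (13.7% of all probe sets), and without TAA replicate 2 the count was 6 (13.03%) and the median 1.13.

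At day 30 all 7 genes had lower means in both drugs than in vehicle. In DEX the differences from BSS ran from -0.22 ± 0.20 for P2ry12 to -0.63 ± 0.30 for Csf1r, with a median of -0.48 against -0.04 over all genes, of which 42.1% were higher. In TAA they ran from -0.23 for P2ry12 to -0.69 ± 0.40 for Ly86, with a median of -0.32 against -0.02. Both comparisons share their BSS arrays. No member passed in either (0 of 10 probe sets and 0 of all probe sets, percent called 0 in both), and the smallest adjusted p was 0.374, for Tmem119 in DEX (limma).

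Tmem119 was the only gene whose DEX arrays lay wholly below BSS at day 30, against 8.6% of all probe sets, and none lay wholly above, against 5.31%. In TAA no kept probe set was separate from BSS and 1 probe set of Csf1r lay wholly below, against 7.39% of all probe sets and 5.36% above. These counts moved with single arrays, most of all with BSS replicate 2. Its mean over the 7 genes was -0.28, while BSS replicates 1 and 3 stood at 0.43 and 0.52, and its reactive glia mean was -0.90, the lowest of the BSS arrays. The mean of 8 lens markers split the same arrays, at -0.12 in replicate 2 and 1.81 and 2.09 in replicates 1 and 3. All 8 lens markers had lower means in DEX than in BSS at day 30 (median -1.69) and all 8 higher ones in TAA (median 0.22), and the part of lens or glial signal in the members' values was not tested. Without BSS replicate 2 all 7 genes lay wholly below BSS in both DEX (15.7% of all probe sets) and TAA (11.9%). The medians were then -0.61 and -0.58. Without BSS replicate 3 the medians were -0.20 and -0.21. The count wholly below BSS was also 3 of 7 in DEX without DEX replicate 3 (25.3% of all probe sets) and 3 of 7 in TAA without TAA replicate 2 (16.3%).

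The same-numbered BSS and DEX arrays of day 30 deviated together from their group means (r = 0.114, 0.147 and 0.242 over all probe sets), although the labels do not say that a number marks a shared animal or batch. Within these 3 pairs 5 of 7 genes (Tmem119, P2ry12, Cx3cr1, Csf1r and Fcgr3) were lower in DEX in every pair, against 20.5% of all probe sets. The differences within pairs were -0.70, -0.35 and -0.54 for Tmem119 and -1.18, -0.03 and -0.67 for Csf1r. With the number as a block in a fit of these 2 groups, 2 of all probe sets and 0 of the 10 member probe sets passed, and the adjusted p of Tmem119 was 0.192 (limma).

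**Figure D4:**
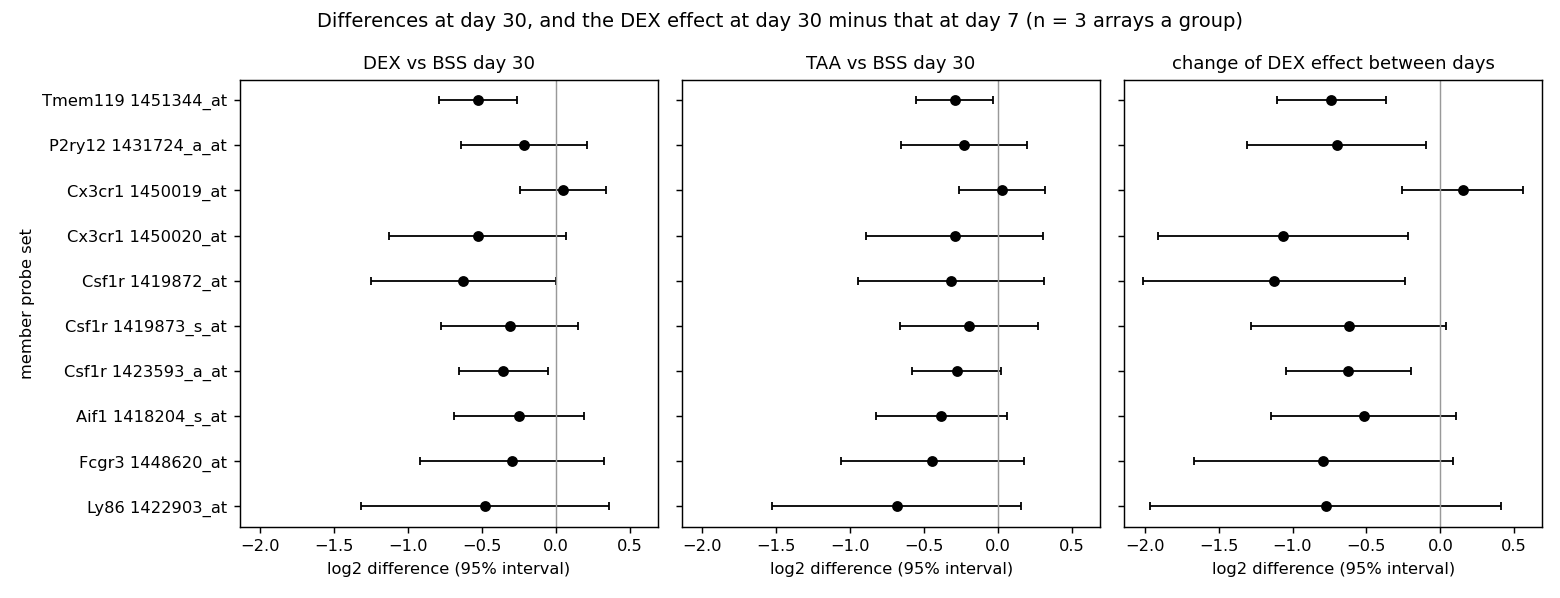
Points are log2 differences between group means with 95% intervals for each of the 10 member probe sets. The panels show DEX against BSS and TAA against BSS at day 30, and the difference of DEX from BSS at day 30 minus that at day 7. All points against BSS lie below 0 except those of the second Cx3cr1 probe set, and the interval for Tmem119 in DEX, centred on -0.53, lies farthest from 0 relative to its width.

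Between the drugs at day 30 the differences were small and mixed. Of the 7 genes 4 were higher in DEX, with a median of 0.01 and a range from -0.31 ± 0.30 for Csf1r to 0.21 ± 0.40 for Ly86. Ly86 lay wholly above, against 6.29% of all probe sets, and Tmem119 wholly below, against 7.7%. The count above was 2 without DEX replicate 1 (9.24% of all probe sets) or replicate 2 (10.9%), and that below was 3 without DEX replicate 3 (19.6% of all probe sets). No probe set passed among members or over the series (percent called 0), with a smallest adjusted p among members of 0.374 (limma). The intervals were wide, for Cx3cr1 from -0.84 to 0.36, and do not show that the drugs acted alike.

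Vehicle eyes were compared between the days to show what changed without a drug. All 7 genes had higher means at day 30, from 0.05 ± 0.30 for Csf1r to 0.38 ± 0.28 for Cx3cr1, with a median of 0.17 that ran from 0.06 without BSS day 30 replicate 1 to 0.44 without BSS day 30 replicate 2. Beside this, 8 of 8 lens markers (median 1.61) and 13 of 13 neutrophil and lymphocyte markers (median 0.13) had higher means at day 30, and their part was not tested. No gene was separate between the days, against 10.6% of all probe sets wholly above and 10.5% wholly below. No member passed, and 6 probe sets of the series did (percent called 0.0133). Without BSS day 30 replicate 3, 4 of the 7 genes were higher, and without BSS day 30 replicate 2, 5 lay wholly above (16.6% of all probe sets).

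The test of whether a drug's difference from vehicle changed between the days is the interaction of drug and day. For DEX the change was negative for all 7 genes, with a median of -0.78 against -0.03 over all genes, from -0.52 ± 0.30 for Aif1 to -1.12 ± 0.42 for Csf1r. For Tmem119 it was -0.74 ± 0.18 with an adjusted p of 0.491, for Cx3cr1 -1.06 ± 0.40, and for P2ry12 -0.70 ± 0.29, and none of the 10 probe sets passed (limma, percent called 0). For TAA the changes were mixed, from -0.87 ± 0.42 for Fcgr3 to 0.42 ± 0.40 for Cx3cr1. Their median was -0.15 against -0.02 over all genes (percent called 0). That median was 0.25 without TAA day 7 replicate 2.

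The change of the gap between DEX and TAA from day 7 to day 30 had a negative sign for 6 of the 7 genes. Its median was -0.59, against -0.01 over all genes, of which 47.9% had a positive change. The gap itself had a median over the 7 genes of 0.59 at day 7 and 0.01 at day 30. The change was -1.48 ± 0.40 for Cx3cr1, -1.39 ± 0.42 for Csf1r, -0.83 ± 0.29 for P2ry12 and -0.59 ± 0.18 for Tmem119, and 0.08 ± 0.42 for Fcgr3. None passed (smallest adjusted p = 0.205, limma, percent called 0). Without DEX day 30 replicate 3, Cx3cr1 and 1 probe set of Csf1r passed with adjusted p of 0.0409 and 0.049, as did 1605 probe sets in all. The median was -1.02 without TAA day 7 replicate 2.

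Counts at an unadjusted p under 0.05 stand beside the 0 member calls of the limma fit. They were 1 of 10 member probe sets (P2ry12) and 1524 of all probe sets in DEX against BSS at day 7, and 1 (Cx3cr1) and 1691 in TAA against BSS. At day 30 they were 2 and 5088 in DEX against BSS, 1 and 3037 in TAA against BSS, and 0 and 7136 in DEX against TAA. They were 0 and 3316 in vehicle between the days, 5 and 3676 in the change of the DEX difference, 0 and 2534 in that of TAA, and 6 and 6199 in the change between the drugs. With array weights, 3 member probe sets passed in DEX against BSS at day 30 (Tmem119 and 2 of Csf1r), as did 4823 of all probe sets, and 5 members passed in the change of the DEX difference, as did 2773 of all. Tmem119 also passed in DEX against BSS at day 30 without DEX replicate 3 (adjusted p = 0.0368, limma), in a fit where 2009 of all probe sets passed.

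The members varied together from array to array. Over 18 arrays the 21 pairs of genes had r from 0.28 to 0.89 with a median of 0.73, and rho from 0.33 to 0.87 with a median of 0.71. Of these pairs 20 had an adjusted permutation p under 0.05 by r and 19 by rho, adjusted over 32 relations. The share of all gene pairs of the series under that threshold was not computed, so these counts are not shown to be particular to the members. Each permutation shuffled all 18 arrays without regard to group, so it did not test variation within groups. Leaving out the 2 arrays farthest from the median gave r from 0.40 to 0.83. Within groups, after each group's mean was taken out, r ran from 0.50 to 0.88, so the shared variation was also found among arrays of the same treatment and day.

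The closest pair was Aif1 and Ly86 (r = 0.89, adjusted permutation p = 8e-05) and the loosest was Cx3cr1 and Fcgr3 (r = 0.28, adjusted permutation p = 0.276). Both probe values of a pair come from the same RNA and the same array, which any shared technical variation would also link.

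The genes whose values were most like the mean of the 7 members are given as a description, with Pearson's r over 18 arrays. They were Ctss, a lysosomal cysteine protease of microglia (0.95), Laptm5, a lysosomal membrane protein of blood cells (0.94), Evi2a (0.89), Fcgr1, the high-affinity receptor for immunoglobulin G (0.87), C1qc, a chain of complement C1q (0.86), Mpeg1, a pore-forming protein of macrophages (0.85), Ccl12 (0.85), Slco2b1 (0.85), Sting1 (0.84) and Gatm (0.84). Single members differed in their closest genes. Itgb2, the common chain of leukocyte integrins, led for Fcgr3 (0.87) and Cd34, carried by vascular endothelium, led for P2ry12 (0.90) ahead of the endothelial receptor Kdr (0.86). Padi2 led for Tmem119 (0.89), Abca8b for Cx3cr1 (0.83), Laptm5 for Csf1r (0.95), Evi2a for Aif1 (0.91) and Ctss for Ly86 (0.93).

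The relation of the members to reactive glia genes differed between the pooled arrays and the arrays within groups. Across all 18 arrays the mean of the 12 reactive glia genes had r of 0.79 with Fcgr3 (adjusted permutation p = 0.000378), 0.69 with Aif1 (adjusted permutation p = 0.00162) and 0.52 with Ly86 (adjusted permutation p = 0.0314), of which Fcgr3 and Aif1 also passed by rho. It had r of 0.39 with Csf1r, 0.32 with Tmem119, 0.29 with P2ry12 and 0.07 with Cx3cr1, none of which passed. After each group's mean was taken out, r was positive for all 7 genes, from 0.52 for Tmem119 to 0.88 for Aif1, with 0.73 for Csf1r, 0.65 for P2ry12 and 0.55 for Cx3cr1. Within the 9 arrays of day 7, r was -0.12 for Cx3cr1, 0.06 for Csf1r and 0.88 for Fcgr3, and within those of day 30 it was 0.87, 0.84 and 0.59. All 12 reactive glia genes were higher in both drugs than in BSS at day 7, with medians of 0.72 in DEX and 1.07 in TAA. By group means, the members and the reactive glia genes thus had the same sign in DEX at day 7 and opposite signs in TAA except for Fcgr3. The sign in TAA was not firm for Aif1 (-0.02 ± 0.21) and Ly86, which were at 0.13 and 0.17 without TAA replicate 1. None of the 12 reactive glia genes passed the test (limma). Gfap was 0.75 ± 0.40 higher in DEX and 1.20 ± 0.40 higher in TAA at day 7.

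**Figure D5:**
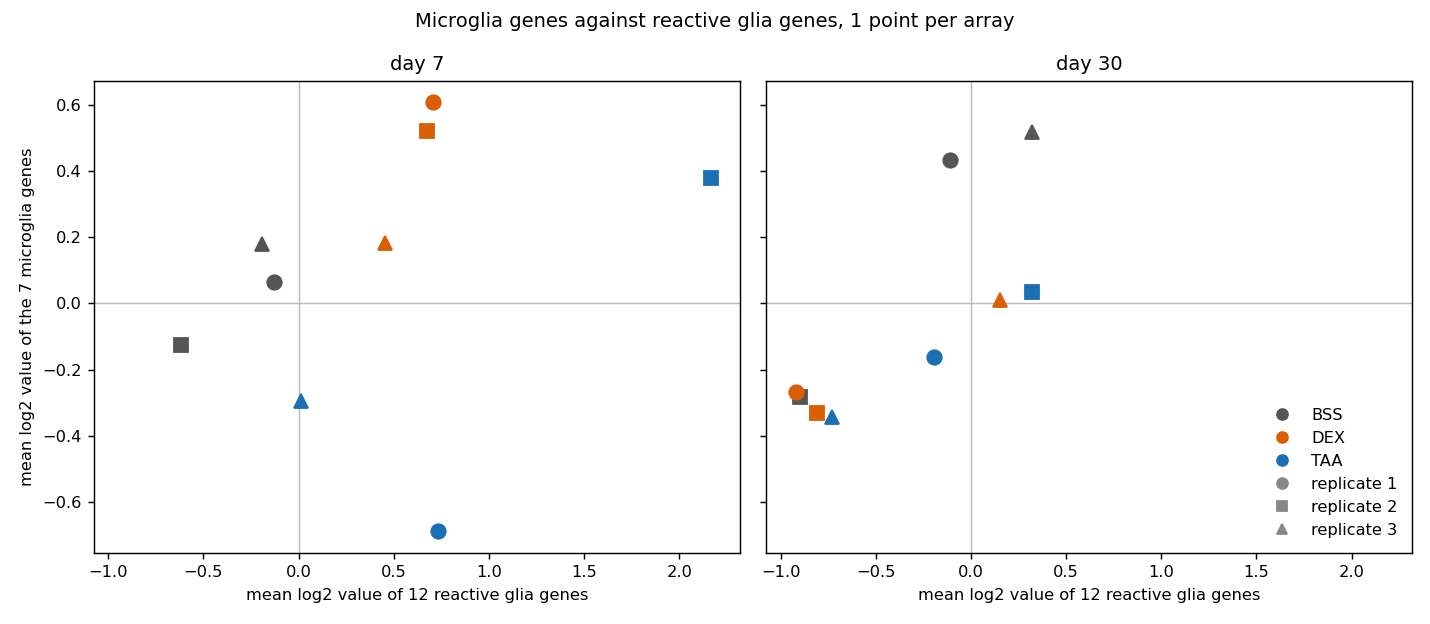
Each point is 1 array, with 1 panel for each day. The x axis is the mean log2 value of 12 reactive glia genes and the y axis the mean of the 7 members. Colour marks the treatment and shape the replicate. TAA day 7 replicate 2 is alone at 2.17 on the x axis, and TAA day 7 replicate 1 combines a glia mean of 0.73 with the lowest member mean, -0.69.

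Other genes of microglia were read from a separate list, of which 23 of 24 were measured. In DEX against BSS at day 7, 22 of 23 were higher with a median of 0.32, and in TAA against BSS 9 were higher with a median of -0.05. At day 30 4 were higher in DEX (median -0.29) and 6 in TAA (median -0.15). None passed in any comparison (limma). Sall1, a transcription factor that maintains microglial identity, was 0.50 ± 0.20 higher in DEX and 0.28 lower in TAA than in BSS at day 7 as means, a gap of 0.78 ± 0.20 between the drugs. Selplg, the selectin ligand, had a gap of 0.64 ± 0.18 at day 7 and stood at -0.71 ± 0.18 in DEX against BSS at day 30. Siglech and Gpr84 had gaps of 0.29 ± 0.11 and 0.30 ± 0.12.

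Ligands, signalling partners and regulators of the members showed smaller differences. Of 18 measured genes 11 were higher in DEX than in BSS at day 7, with a median of 0.08, and 11 in TAA with a median of 0.04. At day 30 4 were higher in DEX (median -0.15) and 6 in TAA (median -0.13). None passed (limma). The Csf1r ligands Il34 and Csf1 were at -0.12 ± 0.13 and 0.27 ± 0.14 in DEX against BSS at day 7, and the Cx3cr1 ligand Cx3cl1 was at -0.02 ± 0.16. The myeloid transcription factors Spi1 and Irf8 were at 0.06 ± 0.11 and 0.43 ± 0.22. Fcer1g, the signalling chain used by Fcgr3, was at 0.08 ± 0.22 in DEX and 0.29 ± 0.22 in TAA. Ly96, the relative of Ly86 that pairs with Tlr4, was at 0.25 ± 0.16, and Entpd1, which breaks down the nucleotides that P2ry12 senses, at 0.13 ± 0.18 in DEX.

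Activated microglia genes, of which 15 were measured, had a median of 0.08 in DEX (12 higher) and 0.17 in TAA (11 higher) against BSS at day 7. Here DEX was the lower drug for 10 of 15 genes, while all 7 members had higher means in DEX, Fcgr3 by 0.07 ± 0.29. The mean of the 15 genes was 0.66 in TAA day 7 replicate 2, and -0.11 and -0.05 in TAA replicates 1 and 3. In DEX replicates 1, 2 and 3 it was 0.23, 0.08 and 0.05, each above TAA replicates 1 and 3 and below TAA replicate 2. At day 30 4 of the 15 were higher in DEX (median -0.06) and 10 in TAA (median 0.06). None passed (limma). Cybb, a subunit of the phagocyte oxidase, was at 0.03 ± 0.14 in DEX and 0.34 ± 0.14 in TAA at day 7. Ctsz, a lysosomal protease, was at 0.45 ± 0.21 and 0.49 ± 0.21, Axl, a receptor for dying cells, at 0.48 ± 0.28 and 0.49 ± 0.28, and Igf1 at 0.49 ± 0.25 and 0.20 ± 0.25.

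Markers of other leukocytes that a retina could hold were given beside these values. Of 12 monocyte and border macrophage markers, 6 were higher in DEX and 8 in TAA than in BSS at day 7, with a median of 0.01 in both, and their mean per array lay between -0.19 and 0.08 except for 0.26 in TAA day 7 replicate 2 and 0.31 in BSS day 30 replicate 3. At day 30 3 were higher in DEX (median -0.15) and 3 in TAA (median -0.11). F13a1, found in monocytes and border macrophages, was at 0.75 ± 0.20 in TAA and 0.07 ± 0.20 in DEX against BSS at day 7, and Chil3, of monocytes, at 0.36 ± 0.11 and 0.09 ± 0.11. The part of these cells in the values of Fcgr3, Ly86, Aif1 and Csf1r, which monocytes also express, was not tested. Of 13 neutrophil and lymphocyte markers 6 were higher in DEX (median -0.04) and 9 in TAA (median 0.04) at day 7, and their mean per array lay between -0.17 and 0.24. None of either list passed (limma).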

How the data were processed

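Retinal RNA from 18 samples was hybridised to Affymetrix arrays. Per the labels' protocols, tissue went into RNAlater, a Qiagen RNeasy kit gave the RNA, and cRNA was made by the two-cycle Affymetrix procedure. Per the submitters' processing notes, the authors summarised the arrays with RMA, whose version is not given in the sources used here. The deposited numbers are read as log2 because RMA gives log2 by convention, and their direction is read likewise; 45101 of 45101 probe sets had a median over the arrays within 1e-06 of 0. They hold no signal over background, so no filter on level could be set.

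From these values, 64 control probe sets were left out and the other 45037 went into 1 limma model (limma 3.58.1, R 4.3.3) of the 6 group means (12 residual and 5.48 prior degrees of freedom) with default empirical Bayes moderation. The Benjamini-Hochberg adjustment ran over all 45037 p-values, with a threshold of 0.05. Errors are SE of the difference. The script was tested on simulated data. Probe sets were named from the platform annotation: 34945 named 1 gene, 932 several and 9160 none here, and 34741 had a gene ID in RefSeq's table. For values per gene, the probe set of highest interquartile range was kept.

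Correlations across arrays used 100000 permutations. No 2 arrays were identical. The members, the 13 gene lists (154 of 166 distinct list genes, members included, were measured) and the tests were chosen with earlier results of these data known. All member probe sets are named. Of other lists, up to 4 genes of smallest p in the day 7 comparisons are named, with 6 fixed genes of the ligand list, 10 genes most like the members' mean and the first for each member, of the 3 looked up. Kdr, second for P2ry12, and the glucocorticoid targets Fkbp5 and Zbtb16 are also given. The alternatives were other choices of probe sets, quantile normalization, median centring, array weights, fewer groups in the fit, robust moderation, the replicate number as a block, and each array left out. Counts of genes higher, or separate, without each array were added after the data were seen. A fit with the replicate number as a block for BSS and DEX at day 30 alone was added likewise. Over all groups, 17 of 45 same-numbered pairs of arrays deviated together with r over 0.1. BSS and DEX at day 30 were the only groups of which all 3 pairs did.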

Additional observations from a re-analysis of the deposited data

Results flagged for a closer look

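The difference of Tmem119 between DEX and BSS had opposite signs at the 2 days in every array: all 3 DEX arrays were above all 3 BSS arrays at day 7, the nearest by 0.0788 against 0.0772, and all 3 were below at day 30. The change of the difference between the days was -0.738 on the log2 scale, and the interaction term did not pass the test (limma, adjusted p = 0.491).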

How the results depend on the processing

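The precision is limited by 3 arrays per group. Of 73 single differences, recomputed under the alternatives to give 1203 values, 1160 kept their direction and side of the threshold, 17 passed the threshold and 26 changed sign, in 10 differences. The causes were not tested unless given. With array weights, probe sets passing numbered 511 (BSS day 30 against day 7), 4823 (DEX against BSS, day 30), 10 (DEX against BSS, day 7), 3959 (DEX against TAA, day 30), 860 (DEX against TAA, day 7), 101 (TAA against BSS, day 7), 2773 (change of the DEX effect), 1290 (change of DEX against TAA) and 17 (change of the TAA effect), with 3, 4, 5 and 2 member probe sets in DEX against BSS at day 30, DEX against TAA at day 7, the change of the DEX effect and the change of DEX against TAA, and a median of 0.937 in DEX against TAA at day 7. With quantile normalization 83, 1, 2 and 3 passed in BSS between the days, DEX against BSS, DEX against TAA and TAA against BSS at day 7. Fitting only the groups compared gave 3, 2, 0 and 10 in BSS between the days, DEX against BSS at day 7, TAA against BSS at day 7 and the change of the DEX effect. One probe set per gene gave 1 in DEX against TAA at day 7, and the probe sets above the median interquartile range gave 1 there and 2 in TAA against BSS. The last was 0 with centred arrays and 0 with robust moderation. With the replicate number as a block, 0, 1, 3 and 1 probe sets passed in TAA against BSS at day 7, TAA against BSS at day 30, DEX against TAA at day 30 and the change of DEX against TAA, and no member. Within DEX and BSS at day 30 alone, the block gave 2 and no member. Over all groups the 45 same-numbered pairs had a median r of 0.0516, with 17 over 0.1, against a median of -0.0173 for pairs of other numbers. These values do not settle whether the numbers pair the samples.

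Leaving out 1 array gave 0 to 5 probe sets in BSS between the days, 0 to 2009 in DEX against BSS at day 30, 0 to 1 at day 7, 0 to 3023 in DEX against TAA at day 30, 0 to 8 at day 7, 0 to 22 in TAA against BSS at day 7, 0 to 13 in the change of the DEX effect, 0 to 1605 in the change of DEX against TAA and 0 to 2 in that of TAA. Members numbered 0 to 1 in DEX against BSS at day 30 (Tmem119, adjusted p = 0.0368 in limma, without DEX day 30 replicate 3) and 0 to 2 in the change of DEX against TAA. Medians ran from 0.273 to 1.13 in DEX against TAA and -0.646 to -0.0634 in TAA against BSS at day 7, -1.02 to -0.471 in the change of DEX against TAA and -0.266 to 0.248 in that of TAA.

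The second Cx3cr1 probe set changed sign in TAA against BSS at day 30 (-0.00463 with weights, -0.0758 to 0.0753 without 1 array) and day 7 (0.0738 with quantile normalization, 0.00866 with centring, 0.182 with weights, -0.105 to 0.201 without 1 array), and without 1 array in DEX against BSS at day 30 (-0.0525 to 0.105) and DEX against TAA at day 7 (-0.306 to 0.000516). Fcgr3 changed sign in the change of DEX against TAA (-0.0533 with quantile normalization, -0.257 with weights, -0.272 to 0.356 without 1 array) and in DEX against TAA at day 7 (-0.209 to 0.420). Without 1 array signs also changed for a Csf1r probe set in TAA against BSS at day 30 (-0.498 to 0.00631), for Aif1 (-0.290 to 0.130) and Ly86 (-0.935 to 0.171) in TAA against BSS at day 7, and for Ly86 in the change of DEX against TAA (-1.02 to 0.0824).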

Other observations

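Lists of other retinal cells, given as values beside the members, were as follows for DEX against BSS, then TAA against BSS, at day 7. Of 8 vascular endothelium markers 6 and 4 were higher, with medians of 0.10 and 0.00. The endothelial genes Kdr and Cdh5 were at 0.52 ± 0.17 and 0.24 ± 0.11 in DEX and at -0.01 and -0.21 in TAA, and the gaps between the drugs were 0.53 ± 0.17 and 0.45 ± 0.11. These 2 do not stand for the list. Of its 8 markers 5 were higher in DEX than in TAA and 3 lower, with a median gap of 0.07 and a range from -0.41 to 0.53. Of 8 Müller glia markers 7 and 5 were higher, with medians of 0.11 and 0.13. Of 9 rod markers 2 and 2 were higher, with medians of -0.05 and -0.02. Of 10 pigment epithelium markers 1 and 3 were higher, with medians of -0.54 and -0.24. Of 8 lens markers 1 and 2 were higher, with medians of -0.76 and -0.05. Of 3 erythrocyte markers 1 and 1 were higher, with medians of -0.03 and -0.13. Of 9 classical glucocorticoid targets 4 and 6 were higher, with medians of -0.07 and 0.83. None of these genes passed the test (limma).

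At day 30, again for DEX and then TAA against BSS, 3 and 4 of the 8 vascular endothelium markers were higher, with medians of -0.05 and 0.003. Of the Müller glia markers 3 and 2 of 8 were higher (medians -0.13 and -0.08), of the rod markers 7 and 2 of 9 (0.04 and -0.13), and of the pigment epithelium markers 6 and 7 of 10 (0.15 and 0.07). Of the erythrocyte markers 0 and 2 of 3 were higher (-0.15 and 0.07), of the classical glucocorticoid targets 3 and 6 of 9 (-0.18 and 0.08), and of the neutrophil and lymphocyte markers 5 and 2 of 13 (-0.02 and -0.08). None passed (limma).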
